A study of Mus musculus with 4 samples.

Results

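The probes described here carry the dinucleotide CC in the middle of 4 varied bases, with a purine on each outer side, so that on its own strand the CC cannot form part of a longer run of pyrimidines. They were taken from 21 libraries of designed DNA probes, in each of which 4 neighbouring bases run through all their combinations. Probes were kept when the listed 4 bases are CC with A or G on each outer side, or when they are the reverse complement of such a set, GG with T or C on each outer side, which puts the CC on the opposite strand. Contexts are written as read on the strand that holds the CC, so that a probe listed as TGGC has the context GCCA. This gave 8 endings in each library and 168 probe names, 84 with CC on either strand, of 5376 names in the 21 libraries and 6126 on the array. The rule reads the listed bases and uses no intensity.

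Absorption of UV light by DNA joins neighbouring pyrimidines on one strand. Cyclobutane pyrimidine dimers (CPD) join the bases through a ring at their double bonds, and 6-4 photoproducts (6-4PP) join them through a single bond between different ring positions. Both lesions distort the helix, block polymerases and are removed by nucleotide excision repair. CC is the pair at which the tandem CC to TT change that marks sunlight-exposed skin tumours arises, and it is generally described as less photoreactive than pairs that contain a thymine.

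The arrays were part of a UV-Bind experiment, in which protein binding is read on irradiated and non-irradiated DNA arrays. Here the bound protein was an antibody detected through Alexa 488. There were 4 arrays, 1 in every group. An irradiated and a non-irradiated array received anti-CPD diluted 1 in 400, and the other two, again one of each condition, received anti-6-4PP diluted 1 in 80. All groups share the same probe set and differ in antibody and irradiation. The labels name the mouse as organism, while the measured DNA is synthetic, and no UV dose was stated in the labels. For both 6-4PP arrays the title states the opposite condition from the array condition field; the field, which the deposited file names follow, was used throughout. With 1 array in a group, differences between irradiated and non-irradiated arrays have no replicate check, and all tests below compare the 10 replicate spots of 2 probes on 1 array, not conditions.

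The libraries are built on binding sites of 3 transcription factors: MITF, which binds the E-box in pigment cells, TBP, which binds the TATA box, and p53, which responds to DNA damage. The listed strands below show how a central CC is set into them, from the simplest case to the brightest and dimmest. Capitals mark every base that belongs to a dipyrimidine on either strand, leaving out the shared 10 bases at the 3′ end.

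TBP_E59_GCCA: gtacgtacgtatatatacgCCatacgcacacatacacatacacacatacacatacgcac
TBP_E59_ACCA: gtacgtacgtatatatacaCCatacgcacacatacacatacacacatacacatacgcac
TBP_E59_TGGT: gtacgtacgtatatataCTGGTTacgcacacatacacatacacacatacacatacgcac
MITF_sebox_60_GCCA: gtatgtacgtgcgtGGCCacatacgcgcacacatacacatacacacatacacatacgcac
MITF_ebox_59_ACCG: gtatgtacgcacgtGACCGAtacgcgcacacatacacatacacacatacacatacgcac
MITF_Ex_ebox_60_ACCG: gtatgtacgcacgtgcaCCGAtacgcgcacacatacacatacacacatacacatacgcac
MITF_Ex_ebox_60_CGGT: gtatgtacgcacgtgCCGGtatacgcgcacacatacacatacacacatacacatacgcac
p53_E60_GCCG: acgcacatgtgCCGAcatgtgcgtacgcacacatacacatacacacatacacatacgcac
p53_E_mut_60_GCCG: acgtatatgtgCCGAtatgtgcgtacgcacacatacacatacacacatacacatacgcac

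The central CC starts between base 11 and base 20 of the probe, counted from the 5′ end. In TBP_E59_GCCA and TBP_E59_ACCA the only dipyrimidine is the CC itself. In most other probes an outer purine lies beside a backbone purine, and this pair of purines is read as a dipyrimidine on the strand opposite the CC. Such a pair is called an edge here. MITF_sebox_60_GCCA has 1 edge, GG, which is CC on the other strand. MITF_Ex_ebox_60_ACCG has the edge GA, which is TC on the other strand. MITF_ebox_59_ACCG has an edge on each side. The libraries fall into 2 designs. Of the 64 central CC probes in the 8 libraries of 59 bases, 32 have 0 edges and 32 have 2 edges, and all 104 probes in the 13 libraries of 60 bases have 1 edge. An A as outer base makes the edge hold a T, and a G makes it hold a C. The outer base, the strand, the length and the edges are therefore tied together by the design, so comparisons between probes are also given within edge classes.

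Irradiated arrays were brighter at every central CC probe. On the CPD UV array their intensities ran from 1074.5 to 8313.5 with a median of 2541.5, and on the CPD non-UV array from 25 to 41 with a median of 29. On the 6-4PP UV array they ran from 4091 to 31976 with a median of 9404.5, and on the 6-4PP non-UV array from 33.5 to 74.5 with a median of 55.75. The UV and non-UV ranges did not overlap for either antibody. The UV minus non-UV difference was 6.49 on the log2 scale for CPD (5.21 to 7.85) and 7.47 for 6-4PP (6.15 to 9.23), above 0 at 168 of 168 names for both antibodies, as at 100% of all 5376 names. Over all those names the median differences were 7.11 and 8.17, and 130 central CC names lay below the first and 142 below the second. The difference was larger with more edges, with medians of 6.18, 6.55 and 6.99 for CPD and 6.81, 7.61 and 7.71 for 6-4PP at 0, 1 and 2 edges. The 208 names without any dipyrimidine were brighter with UV too. Their CPD median was 28 without UV and 2341.75 with it, and their 6-4PP median was 53 without and 4832 with it. A rise after UV was thus not particular to probes with a dipyrimidine. The gain of each scan was not stated in the labels, and its part in these differences was not tested.

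The spread of replicate spots sets what can be told apart. The median SD of log2 intensity over the spots of a central CC name was 0.70 with UV and 0.21 without for the CPD antibody, and 0.30 with UV and 0.16 without for the 6-4PP antibody. On the CPD UV array the local median around the spots ran from 1183.5 to 7874, and with the authors' spatially adjusted intensity the SD there was 0.27. Counts of called pairs on the CPD UV array are therefore given without adjustment and also with it. None of the 1680 central CC spots on any array reached the scanner's ceiling. In the 21 libraries as a whole 3285 spots on the 6-4PP UV array did. Shares of all pairs called on that array therefore include pairs held at the ceiling, and their part in those shares was not tested. Flags removed 8 of the 1680 central CC spots on the irradiated 6-4PP array and 30 on the non-irradiated one. For the 40 central CC sequences also printed under another name, the 2 medians differed by 0.32 on the log2 scale at the median on the CPD UV array and by 0.17 on the 6-4PP UV array. The largest such differences were 1.06 and 0.64.

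The probes whose only dipyrimidine is CC show the levels of a CC without an edge, in 8 libraries for each context. Names without any dipyrimidine were also bright after UV, so these levels do not measure the response to CC alone. With the CPD antibody TBP_E59_GCCA had 1773 ± 817 after UV and 29 ± 4.3 without, and with the 6-4PP antibody it had 6404 ± 1182 after UV and 57.5 ± 4.9 without (median ± SD of 10 spots). TBP_E59_ACCA had 2123 ± 844 and 29 ± 4.5 with the CPD antibody, and 11781 ± 1864 (9 spots) and 56 ± 6.6 with the 6-4PP antibody. The spots of the 2 probes overlapped on the CPD UV array, where they spanned 768 to 3389 and 932 to 3622, and were apart on the 6-4PP UV array, at 4598 to 7927 and 9267 to 14844.

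Over the 8 libraries, the 6-4PP levels were highest in ACCA and lowest where the CC follows a G. The 6-4PP UV median over libraries was 9839.75 for ACCA (7773.5 to 11781), 7579.25 for ACCG (6335 to 9829), 5595 for GCCA (4504.5 to 6804) and 4964.5 for GCCG (4091 to 6259). The lowest ACCA probe was brighter than the highest GCCA and the highest GCCG probe, whereas ACCG overlapped with ACCA and with GCCA, and GCCA overlapped with GCCG. The CPD UV medians were 2188.75 for ACCA (1554.5 to 3034), 2058.75 for ACCG (1453 to 2607.5), 1699 for GCCA (1336.5 to 2086.5) and 2015 for GCCG (1249.5 to 2978). All 4 contexts overlapped there. For comparison, the 208 names without any dipyrimidine had UV medians of 2341.75 for CPD and 4832 for 6-4PP, but these are 16 names in each library of 60 bases and share no library with the lone CC probes. Their medians ran from 1817.75 to 3590 over libraries for CPD, and from 4308.75 to 6491.5 for 6-4PP. The 6-4PP range of lone ACCA lay above these library medians. Its lowest value, 7773.5, was still below the highest single name without a dipyrimidine, at 8599.5. The other contexts for 6-4PP, and all 4 for CPD, overlapped with the library medians. Without a shared library, a lone CC cannot be set against such names within a library.

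Central TT, TC and CT between the same purines differ from CC by 1 or 2 bases on a strand and show where CC stands among the dipyrimidines. With 1 dipyrimidine in the probe, the medians over 32 probes on the CPD UV array were 5980.75 for TT, 3448.25 for TC and 2662.75 for CT, against 2021.5 for CC. For 6-4PP they were 15342.5 for TC, 9919.5 for TT and 5373.25 for CT, against 6733 for CC. CC was thus the dimmest type for the CPD antibody, and for the 6-4PP antibody it lay between TT and CT.

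The test of these differences paired each central CC probe with the probe of the same library, strand and outer bases. With the CPD antibody, TT was brighter than CC by 1.34 on the log2 scale at the median, at 168 of 168 pairs, and 162 pairs passed an adjusted p of 0.05 in the exact permutation test, a share to be read against 96.3% of all TT and CC pairs of the 21 libraries. Among probes with 1 dipyrimidine all 32 pairs passed, with and without adjustment, at a median of 1.56 (0.52 to 2.72) without it. The smallest difference was MITF_ebox_59_CAAC over MITF_ebox_59_CGGC at 0.52 (SE 0.21), and the largest was TBP_E59_ATTA over TBP_E59_ACCA at 2.72 (SE 0.21). The latter pair also differed on the CPD non-UV array, by 0.69 (SE 0.09, called), and the part of this in the UV value was not tested. By context the lone TT exceeded the lone CC by 1.94 between A and A, 1.98 between A and G, 1.47 between G and A and 1.15 between G and G. The median over all pairs was 1.69 with the dipyrimidine on the listed strand and 1.01 on the opposite strand, and the difference of those medians was not tested. With adjustment, 166 pairs passed (99.1% of all TT and CC pairs).

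TC stood above CC by 0.57 on the CPD UV array, higher at 155 of 168 pairs, and 42 pairs passed (25.3% of all TC and CC pairs). With spatial adjustment the median was 0.63, TC was higher at 168 of 168 pairs and 145 passed (85.3% of all). CT stood above CC by 0.38, higher at 146 of 168 pairs, and 20 passed (23.8% of all). With adjustment the median was 0.37 and 112 passed (74% of all), none in the other direction. At 0, 1 and 2 edges the medians without adjustment were 0.80, 0.55 and 0.44 for TC, with 6 of 32, 25 of 104 and 11 of 32 pairs called, and 26, 91 and 28 with adjustment. For CT they were 0.52, 0.32 and 0.41, with 3 of 32, 13 of 104 and 4 of 32 called, and 23, 73 and 16 with adjustment. The order of the median differences, TT above TC above CT, was the same with and without the adjustment, while the number of pairs past the threshold for TC and CT rested on it.

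With the 6-4PP antibody, TC rather than TT stood furthest above CC. TC exceeded CC by 1.11, at 168 of 168 pairs, and 157 pairs passed (73.8% of all TC and CC pairs). Among probes with 1 dipyrimidine the median was also 1.11 and 28 of 32 pairs passed. The size followed the flanks, with 1.69 between A and A (1.30 to 1.80), 1.40 between A and G (1.16 to 1.68), 0.86 between G and A (0.18 to 1.06) and 0.55 between G and G (0.13 to 0.86). The pairs with A on the 5′ side all passed, and their lowest value lay above the highest value of the pairs with G on the 5′ side. The extremes were TBP_E59_ATCA over TBP_E59_ACCA at 1.80 (SE 0.15) and MITF_ebox_59_CGAC over MITF_ebox_59_CGGC at 0.13 (SE 0.22).

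TT exceeded CC by 0.78 on the 6-4PP UV array, at 166 of 168 pairs, and 146 passed (75.9% of all TT and CC pairs). Among probes with 1 dipyrimidine the median was 0.46 and 21 of 32 passed, whereas it was 0.81 with 1 edge and 1.33 with 2 edges. The one pair with 1 dipyrimidine in which TT was lower was MITF_ebox_59_TAAC against MITF_ebox_59_TGGC, at -0.20 (SE 0.16), and it did not pass. Spots at the ceiling occurred on the TT or TC side in 28 and 52 of the 168 pairs, where the difference is a lower bound, and in 0 and 1 of the 32 pairs with 1 dipyrimidine.

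CT was the one type with a median below that of CC, and this held for the 6-4PP antibody. The median difference was -0.16 over 168 pairs, with 34 pairs called lower and 10 called higher (53.1% of all CT and CC pairs were called). Among probes with 1 dipyrimidine it was -0.29, with 9 of 32 called lower and 0 called higher. Between A and A, CT was lower in 8 of 8 libraries, by a median of -0.60 (-0.92 to -0.30), and 5 were called. Between A and G it was lower in 7 of 8, by a median of -0.40, and 4 were called. With G on the 5′ side the medians were -0.24 and -0.10, with 0 of 16 pairs called by the exact permutation test and 1 at an unadjusted p under 0.05. The largest drop was in MITF_Ex_ebox_59, where ACTA against ACCA gave -0.92 (SE 0.19).

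The 5′ neighbour of CC was compared as A against G with everything else in the probe kept. On the 6-4PP UV array the probe with A was brighter in 84 of 84 pairs, by a median of 0.74 on the log2 scale (0.08 to 1.31), a fold of 1.67, and 71 pairs passed (65.5% of all pairs of this kind with any other bases). In 40 of these pairs the changed base is in no edge, so that no dipyrimidine changes along with it. There too A was brighter in 40 of 40 pairs, by a median of 0.56, and 28 passed. ACCA exceeded GCCA by 0.64 with 18 of 20 pairs called, and ACCG exceeded GCCG by 0.34 with 10 of 20 called. The largest difference was TBP_59_TGGT over TBP_59_TGGC at 1.11 (SE 0.15), and the smallest was MITF_Ex_ebox_60_ACCG over MITF_Ex_ebox_60_GCCG at 0.08 (SE 0.20). Where the base also turned an edge from CC into TC the median was 0.88, with 27 of 28 called, and from CT into TT it was 0.84, with 16 of 16 called.

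With the CPD antibody the same change was small unless an edge changed with it. Over all 84 pairs the median was 0.46, and 24 pairs passed, all with A brighter (39.6% of all such pairs). Where the changed base was in no edge the median was 0.09 (-0.70 to 0.82), A was brighter in 27 of 40 pairs and 1 passed. With spatial adjustment the median was 0.14 (-0.12 to 0.53), A was brighter in 34 of 40 and 10 passed, out of 50 of 84 in all (68.4% of all such pairs). Where an edge went from CC to TC the median was 0.62 and 8 of 28 passed (24 with adjustment), and where it went from CT to TT it was 1.14 and 15 of 16 passed (16 with adjustment). TBP_E59_ACCA and TBP_E59_GCCA differed by 0.19 (SE 0.30) on the CPD UV array and by 0.92 (SE 0.12) on the 6-4PP UV array, with adjusted p of 0.636 and 3.9e-05 in the exact permutation test. With the adjusted intensity the CPD difference of this pair was 0.40 (SE 0.11) and was called, with an adjusted p of 0.0043 in the same test. The difference between the antibodies was not tested, because each antibody had its own arrays.

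At the 3′ neighbour, A against G gave a median of 0.05 on the 6-4PP UV array, with 14 pairs called higher and 15 called lower of 84 (47.2% of all such pairs). The edge classes went in different directions. Where the changed base was in no edge the median was 0.26 and 13 of 44 passed, all with A brighter. Those 13 were all ACCA against ACCG, out of 22 pairs with a median of 0.33. GCCA against GCCG had a median of 0.13 (-0.44 to 0.40) with 0 of 22 called and 2 at an unadjusted p under 0.05. Where A turned an edge from TC into TT the median was -0.44, with 7 of 16 pairs called lower and 0 higher. Where A turned an edge from CC into CT it was -0.15, with 8 of 24 called lower and 1 higher.

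On the CPD UV array the 3′ neighbour gave a median of 0.14, with 6 of 84 pairs called, all with A brighter (22.1% of all such pairs). With spatial adjustment 26 were called higher and 2 lower (54.4% of all such pairs called). With no edge involved the median was -0.09 (-0.83 to 0.77), and 0 of 44 passed, with 2 at an unadjusted p under 0.05. With spatial adjustment that median was -0.01 (-0.32 to 0.32), and 1 pair was called higher and 2 lower. An edge going from CC to CT gave 0.32, with 3 of 24 called, and 10 with adjustment. An edge going from TC to TT gave 0.67, with 15 of 16 pairs higher and 3 called, and with adjustment 16 of 16 higher and 15 called. Where A at the 3′ neighbour put a T in the second place of an edge, the medians were thus above 0 for CPD and below 0 for 6-4PP. The A beside the CC and the T in the edge are 1 substitution and cannot be told apart in these pairs.

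The levels of central CC probes differed with the type of edge. For CPD after UV, probes with 1 edge had medians of 1934.25 with a CC edge, 2318.25 with CT, 3323.75 with TC and 4724 with TT (36, 16, 36 and 16 names). The CC edge group reached 2938 and the TT edge group began at 3329.5, so these did not overlap. For 6-4PP the medians were 7003.5 with a CC edge, 6797 with CT, 12745 with TC and 11690.8 with TT. The TC and TT edge groups overlapped widely, at 7736.5 to 25940 and 6426 to 19767. These are descriptions over probes of different libraries that share most of their bases. Edge type is also tied to the outer base. On the 5′ side, a CC or CT edge goes with G before the central CC, and a TC or TT edge with A. The parts of the edge and of the outer base in these levels were not tested.

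The 6-4PP values also differed with the base before the edge dipyrimidine. Read on the edge's own strand, 6 names with the context ATCG had a median of 22793.2 (18339 to 25940), and 6 names with GTCG on the same side of the CC had 10019.2 (7736.5 to 11902.5), with no overlap. Names with ATTG had 15986.2 (12883.5 to 19767), and names with GTTG had 9769.75 (6426 to 13290). For CPD the order was the other way, with 3461.25 for ATCG (2783 to 4346.5) and 3995.25 for GTCG (3329.5 to 4530.5), and 4967.75 for ATTG (4190.5 to 5678.5) and 6139.5 for GTTG (3889.5 to 6547.5), all overlapping. Each context comes from few libraries, so context and library cannot be told apart in these levels over libraries. Within p53_E_mut_60 the listed-strand probes have the A before the edge and the opposite-strand probes the G. Listed minus opposite was 0.50 to 1.14 for 6-4PP there, with 4 of 4 pairs called. For CPD it was -0.33 to 0.17 with 0 called, and -0.53 to 0.36 with spatial adjustment, with calls in both directions. Strand and context are tied in that library.

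The 3 brightest central CC names on the 6-4PP UV array all held an edge with the context ATCG. MITF_ebox_59_ACCG had 31976 ± 9973 (SD, 10 spots), MITF_sebox_59_ACCG had 30796.5, and MITF_Ex_ebox_60_ACCG had 25940 ± 7381. With the CPD antibody MITF_ebox_59_ACCG had 4694 ± 2046, well within the range of other probes with 2 edges (1910.5 to 8313.5). The 3 dimmest on the 6-4PP UV array were TBP_MUT_59_CGGC at 4091, MITF_sebox_59_CGGC at 4416 and MITF_sebox_59_TGGC at 4504.5, each with 0 edges and a G on the 5′ side of CC. Without adjustment the 3 brightest on the CPD UV array were TBP_E59_TGGT at 8313.5 ± 1128, TBP_MUT_E59_TGGT at 7456.5 and TBP_E59_CGGT at 6922, each with a TT edge. The 3 dimmest there, MITF_sebox_60_GCCA at 1074.5 ± 501, TBP_MUT_60_GCCA at 1128 and MITF_ebox_60_GCCA at 1221, each had 1 edge without a TT or TC. These CPD ranks rested on the intensity used, since none of the 6 names kept its place among the extremes with adjustment. The brightest were then p53_E_mut_60_TGGT at 9019, MITF_Ex_sebox_59_CGGT at 8137 and MITF_Ex_sebox_59_TGGT at 7208, each with a TT edge, and the dimmest were TBP_60_CGGC at 1489, TBP_60_TGGC at 1592 and MITF_Ex_ebox_60_CGGC at 1634, each with a CC edge. With the 6-4PP antibody MITF_sebox_60_GCCA had 6243 ± 1912 after UV and 60 ± 8.0 (9 spots) without, and its CPD value without UV was 29 ± 3.4.

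A probe with CC in the middle and CC as its 1 edge carries a CC on each strand and no other dipyrimidine, and 11 libraries of 60 bases hold such probes, 36 in all. Their levels can be set against the 16 probes of the same library that have no dipyrimidine. On the 6-4PP UV array the mean log2 level of these CC probes was above that of the others in 11 of 11 libraries, by 0.44 at the median (0.05 in p53_60 to 1.34 in TBP_E60). The 2 libraries with the largest differences, TBP_E60 and TBP_MUT_E60 (1.16), are the ones in which the edge CC is preceded by an A. Their edge lies on the 3′ side of the central CC, and these probes include both A and G before the central CC. All 24 names with a CC edge on the 5′ side have G there. The parts of these 2 neighbouring bases were not tested. For CPD the difference was -0.31 at the median and above 0 in 2 of 11 libraries, TBP_E60 at 0.25 and TBP_MUT_E60 at 0.06. With spatial adjustment it was below 0 in 11 of 11 (-0.41 to -0.06). At the level of names, 35 of the 36 were above their library's median without dipyrimidines for 6-4PP after UV and 6 for CPD after UV (35 and 1 with adjustment), against 19 and 16 without UV. These values are descriptions without a test.

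The strand that holds the CC was compared within each library, CC on the listed strand minus CC on the opposite strand with the same outer bases. On the 6-4PP UV array 28 pairs were called higher and 13 lower of 84 (69.9% of all pairs of an ending and its reverse complement were called), and on the CPD UV array 13 were called higher and 13 lower (30.9%; with adjustment 28 higher and 22 lower, against 53.3%). In 59-base libraries the strand decides whether a probe has 0 or 2 edges, and the probe with 2 edges was brighter in 31 of the 32 such pairs with either antibody. Where the listed strand had 0 edges and the opposite 2, the median was -1.11 for CPD and -0.41 for 6-4PP, with 10 of 16 called lower for each antibody (14 for CPD with adjustment). Where it was the other way round the median was 0.73 for CPD and 1.19 for 6-4PP, with 8 and 15 of 16 called higher (11 for CPD with adjustment). TBP_E59_ACCA against TBP_E59_TGGT gave -2.11 (SE 0.21) on the CPD UV array, the largest such difference of the 84. It was -1.51 (SE 0.12) with adjustment and -0.37 (SE 0.11, called) on the CPD non-UV array.

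With 1 edge on either strand the comparison is closest to one of strand alone, although the edges still differ in sequence. The median was 0.04 on the 6-4PP UV array (-0.41 to 1.75) and 0.09 on the CPD UV array (-0.91 to 1.24) over 52 pairs. For CPD, 5 were called higher and 3 lower, and 17 and 8 with adjustment. For 6-4PP, 13 of the 52 were called higher and 3 lower. Of the 13, 12 came from MITF_Ex_ebox_60, MITF_Ex_sebox_60 and p53_E_mut_60, where all 4 pairs were called, with medians of 1.25, 1.31 and 0.77. MITF_Ex_ebox_60_ACCG had 25940 ± 7381 and MITF_Ex_ebox_60_CGGT 8191 ± 1594, a difference of 1.45 (SE 0.21) with an adjusted p of 3.6e-05 in the exact permutation test. As the sequences above show, the first has a TC edge and the second a CC edge. In TBP_E60, p53_E60, p53_60, NP_MITF_ebox_60, MITF_sebox_60, TBP_MUT_E60 and TBP_MUT_60, 0 of 4 pairs were called each.

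The libraries with a changed factor site keep the varied bases and alter the bases around them, and 10 pairs of libraries can be compared at the same 8 endings. On the CPD UV array 0 of 80 pairs were called by the exact permutation test, 1 had an unadjusted p under 0.05, and the median difference was 0.01 (-0.77 to 0.73), with 0.156% of all pairs called. With spatial adjustment 1 was called (1.56% of all). With the 6-4PP antibody 6 were called higher and 4 lower (10.4% of all pairs called). Of the 6 higher, 4 were the listed-strand endings of p53_E_mut_60 against p53_E60, where the base before the edge dipyrimidine goes from G to A as read on the edge's strand. The differences were 0.76 (SE 0.12) for ACCA, 1.12 (SE 0.16) for ACCG, 0.95 (SE 0.11) for GCCA and 1.12 (SE 0.23) for GCCG.

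The pair p53_E60_GCCG and p53_E_mut_60_GCCG differs by 3 substitutions, C4T, C6T and C16T, counted from the 5′ end with the base of p53_E60_GCCG first. The edge is at bases 14 and 15 in both, TC on the opposite strand. p53_E60_GCCG had 9723 ± 4206 on the 6-4PP UV array with spots from 4081 to 16313, and p53_E_mut_60_GCCG had 20404 ± 4682 with spots from 14224 to 30811. With the CPD antibody the 2 probes had 4339 ± 1196 and 2960.5 ± 2430, a difference of -0.44 (SE 0.32) that was not called, and 0.15 (SE 0.12) with adjustment. On the 6-4PP non-UV array they had 35.5 ± 4.2 and 42 ± 4.6, and the 4 listed-strand pairs differed by 0.20 to 0.32 there, with 3 of 4 called. On the CPD non-UV array they had 29.5 ± 4.7 and 31.5 ± 6.2. The remaining 76 pairs, in which the contexts of the edges are alike, had a median of 0.01 on the 6-4PP UV array (-0.58 to 0.40), with 2 called higher and 4 lower. The part of the other 2 substitutions, and of the small difference on the non-UV array, was not tested.

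The same design in 60 and in 59 bases gave 64 pairs at the same ending. With the 6-4PP antibody the 60-base probe was called higher in 20 pairs and lower in 22 (73.4% of all such pairs called). All 20 were pairs in which the 60-base probe had 1 edge and the 59-base probe 0, with a median of 0.55, and in those the 60-base probe was brighter in 32 of 32. All 22 were pairs with 1 edge against 2, with a median of -0.46, and in those it was dimmer in 29 of 32. For CPD, 4 were called higher and 13 lower (24.1% of all), with medians of 0.29 for 1 edge against 0 and -0.66 for 1 against 2. With spatial adjustment 9 were called higher and 28 lower (51.7% of all), and the median for 1 edge against 0 was 0.05, with 9 called higher and 5 lower. Length and number of edges change together in each of these pairs, because all 60-base probes have 1 edge. The strand comparison above sets 0 edges against 2 at a fixed length of 59 bases. The part of length was not tested.

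Across the 168 names the order of the probes on the CPD UV and 6-4PP UV arrays was alike in part, with a Spearman rho of 0.70, and 0.57 over the 32 names with 0 edges. These are descriptions over probes that share most of their sequence and their spot design.

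By ending, the medians over 21 libraries on the 6-4PP UV array were 12691 for ACCA, 10825.5 for ACCG, 6662 for GCCA and 8003.5 for GCCG on the listed strand. They were 12799 for TGGT, 10493 for CGGT, 6383.5 for TGGC and 6585.5 for CGGC, which hold the same 4 contexts on the opposite strand. For CPD they were 3352, 3087.5, 2023.5 and 2445.5 on the listed strand and 3127, 2707.5, 2086.5 and 1938 on the opposite strand, in the same order of contexts. On both arrays and strands ACCA had the highest of these medians, which pool probes with different numbers of edges. Among probes with 0 edges ACCA was also highest on the 6-4PP UV array, at 10620.8 on the listed and 8537 on the opposite strand. On the CPD UV array ACCA with 0 edges was highest on the listed strand, at 2276. On the opposite strand there it had 1950.25, below ACCG at 2098.25. On the CPD non-UV array the medians of the 8 endings lay between 28.5 and 29.5, and on the 6-4PP non-UV array between 54 and 57, with no common order.

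Without irradiation the same pairs gave few calls. On the CPD non-UV array, 3 of 84 pairs passed for the 5′ neighbour (10.1% of all pairs of that kind), 0 of 84 for the 3′ neighbour (3.16%; 5 at an unadjusted p under 0.05 in the exact permutation test), 10 of 168 for TC against CC (3.87%), 4 of 168 for CT against CC (2.83%), 5 of 84 for strand (19.7%), 0 of 80 for the changed site (2.3%; 6 at an unadjusted p under 0.05) and 3 of 64 for length (9.67%). TT against CC was the exception, with 58 of 168 pairs called, all with TT brighter (37.2% of all), at a median difference of 0.18. On the 6-4PP non-UV array 2 of 84 passed for the 5′ neighbour (5.17%), 1 of 84 for the 3′ neighbour (2.83%), 16 of 168 for TT (6.85%), 5 of 168 for TC (1.04%), 0 of 168 for CT (0.446%; 22 at an unadjusted p under 0.05), 4 of 84 for strand (18.9%), 7 of 80 for the changed site (14.6%) and 4 of 64 for length (6.64%). The intensities there were between 25 and 74.5, close to the level of names without a dipyrimidine, whose medians were 28 and 53.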

How the data were processed

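Each array was deposited as a table of spots. Per the file headers, the authors deposited the Alexa 488 fluorescence intensity on a linear scale, the same intensity with flagged spots left empty, the median of the surrounding spots, and a spatially adjusted intensity. Cy3 values were all 1, which leaves the amount of DNA per spot uncorrected. How spots were flagged was not stated in the labels. The intensity without flagged spots was used, and a level is the median of up to 10 spots of a probe name. Dipyrimidines were counted on both strands outside the shared 10 bases at the 3′ end.

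Differences are mean log2 intensities of the spots of 2 probes. An exact two-sided permutation test over the spots was adjusted by Benjamini-Hochberg over all pairs of that comparison on the array (8 comparisons, threshold 0.05, smallest possible p 1.1e-05). A called pair is one below that threshold. These p-values measure only the spread between spots of 1 array, which is technical. No test was made between arrays. The members, comparisons and lists were chosen with earlier results of these data known. The named items were the 8 endings, the 3 brightest and 3 dimmest names per UV array, and the extreme libraries or pairs of a comparison; other pairs were chosen for display after their values had been seen. Alternatives were the spatially adjusted intensity, the median of spots (mean for levels), flagged spots kept, distinct sequences only, either strand alone and the condition in the titles. Pairs without a changed edge and probes with 1 dipyrimidine were added after the data had been seen. The test was tested on simulated data, with spots drawn independently of their place on the array. That simulation therefore does not cover the spatial variation of the CPD UV array. Python 3.11.15, NumPy 2.4.6 and pandas 2.3.3 were used.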

Additional observations from a re-analysis of the deposited data

How the results depend on the processing

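Under the alternatives 159 values kept their direction and moved by less than the spread between spots or, for a share called, by less than 1.5 times, 16 moved further and 4 reversed. Some medians shifted within that spread, such as the 6-4PP strand median, from 0.06 to 0.0050 with the median of spots. The CPD 5′ median, 0.46 over all pairs and 0.09 without a changed edge, was also counted as within it. That setting changes the set of pairs rather than the processing, and the share called went from 28.6% to 2.5%. With the spatially adjusted intensity, the share of central CC pairs called on the CPD UV array was 59.5% for the 5′ neighbour, 33.3% for the 3′ neighbour, 86.3% for TC, 66.7% for CT, 59.5% for strand, 1.25% for the changed site and 57.8% for length. On that array the listed strand alone gave 0% for the 3′ neighbour, with 7 pairs at an unadjusted p under 0.05 in the exact permutation test, and 20.2% for CT. The opposite strand alone gave 16.7% for the 3′ neighbour, 16.7% for TC and 4.76% for CT. Pairs without a changed edge, chosen after seeing the data, gave 2.5% for the 5′ neighbour, 0% for the 3′ neighbour and a reversed 3′ median of -0.0946.

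On the 6-4PP UV array the 3′ median reversed to -0.0277 on the listed strand alone, and 21.4% of its pairs were called on the opposite strand alone. TT minus CC was 0.46 with 1 dipyrimidine, and the changed-site median reversed to -0.0302 with the median of spots. By the titles of the 6-4PP arrays the UV minus non-UV difference is -7.47. No cause of these changes was tested. No paired analysis was possible because each group holds 1 array, and no array could be left out. The spread of spots on the CPD UV array limits calls there: the median SE of a 5′ pair was 0.31, and 0.12 with adjustment.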
